A study of Mus musculus with 17 samples.

Results

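The genes described here belong to the machinery of motile cilia. They are the protein-coding genes whose symbols start with Cfap, Dnah, Dnai, Tekt, Rsph or Spag followed by a digit, together with Foxj1, with a summed count of at least 10 over the libraries. The rule found 70 of 18811 protein-coding genes that passed the same minimum: 31 Cfap, 15 Dnah, 10 Spag, 8 Rsph and 5 Tekt genes and Foxj1. No Dnai symbol was found, because the annotation used gives such genes older names. Among them are Dnaic1 and Dnaic2, intermediate chains of the outer arm, which are given among the related genes. Cfap97d1 passed the minimum only through libraries that repeat another library. Some genes named Spag are known outside the axoneme: Spag4 in the nuclear envelope, Spag5 on the mitotic spindle, and Spag9 as a scaffold of kinase signalling and adaptor of motor proteins. They are kept apart below, together with Spag7. The other 6 Spag genes are called axonemal here, with Spag1 among them as a factor of assembly.

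RNA bound to tagged ribosomes was sequenced from the dissected corpus callosum, the band of myelinated axons that joins the cerebral hemispheres. All mice, controls included, were males of genotype GFAP-Cre+/- Rpl22HA/wt, 8 to 9 weeks old per the series' design text. Cre under a GFAP promoter switches on an HA-tagged Rpl22, a protein of the large ribosomal subunit, in astrocytes, and the tag then stays on in the descendants of any cell that expressed Cre. Which GFAP-Cre line was used is not given in the sources used here. Cuprizone, which binds copper and is toxic to oligodendrocytes, was given at 0.2% of the chow for 5 weeks. These mice were sampled at its end, after 0.5 weeks on normal chow (5.5 weeks) or after 2 weeks on normal chow (7 weeks). Mock mice of matching age ate normal chow. The 5-week libraries are batch 1 and the later ones batch 2, so week and batch cannot be told apart between 5 weeks and the later times. Of 17 libraries, 8 were set aside as repeats of another library of their group. They equal it plus an integer from 1 to 10 in 46.6% to 96.2% of genes with 500 or more counts. The match does not hold in the rest of those genes. This left 9 libraries taken as distinct: cuprizone 1 and mock 2 at 5 weeks, cuprizone 1, 2 and 3 and mock 1 and 3 at 5.5 weeks, and cuprizone 2 and mock 3 at 7 weeks.

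A motile cilium is built on an axoneme, a cylinder of paired microtubules around a central pair. Dynein heavy chains (Dnah genes) are the motors that slide the outer doublets, radial spokes (Rsph genes) link the doublets to the central pair, and tektins (Tekt genes) line the inside of the doublet wall. Many Cfap genes encode doublet-wall proteins, central-pair projections or assembly factors. Foxj1 is the transcription factor that switches on the motile cilia program, and RFX factors act on many of the same genes. In the brain, ependymal cells lining the ventricles and the epithelium of the choroid plexus carry motile cilia, and astrocytes carry a single primary cilium without motility. Several Spag and Tekt genes are best known from the sperm tail.

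RFX factors bind sites built around a short core, GTTGCC, and the promoters of the members were searched for it, since these factors are known regulators of such genes. The RefSeq table of promoters (build GRCm38.p6, 250 bases before to 50 after a start) held a window for 57 of the 70 members. Among the 13 without one were Foxj1 and Cfap54. GTTGCC on either strand was found in 22 of 57 members (38.6%), against 14% of 16513 protein-coding genes with a window. By role, it was found in 4 of 5 axonemal Spag genes, 3 of 5 tektins, 10 of 24 Cfap genes, 4 of 14 dynein heavy chains and 1 of 5 radial spoke genes. None of the windows of Spag4, Spag5, Spag7 and Spag9 held it. A forkhead core, TGTTTAC, of the kind that FOXJ1 can bind, was found on either strand in 4 (7.02%) against 3.49%. Other strings had been tried before these 2 were settled on, among them longer RFX sites, and a match of letters does not show that a factor binds.

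The 150 bases before the start are shown for 6 members named below that have a core site in this stretch and whose cuprizone and mock libraries did not overlap at 5.5 weeks. They are written 5′ to 3′ in the direction of the gene, with capitals marking GTTGCC or its reverse complement. Tekt1, Tekt2 and Spag16 were higher in the cuprizone libraries, and Cfap58, Cfap20 and Cfap46 were lower, so the core site was found on both sides. Tekt1 and Tekt2 have more than 1 start in RefSeq, and the stretch before the most upstream one is shown. In both genes the window of the most downstream start held no core site.
Tekt1, chr11:72361883-72362032, minus strand: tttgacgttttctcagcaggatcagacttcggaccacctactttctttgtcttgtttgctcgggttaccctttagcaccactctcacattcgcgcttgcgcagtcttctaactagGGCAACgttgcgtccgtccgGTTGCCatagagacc
Tekt2, chr4:126325689-126325838, minus strand: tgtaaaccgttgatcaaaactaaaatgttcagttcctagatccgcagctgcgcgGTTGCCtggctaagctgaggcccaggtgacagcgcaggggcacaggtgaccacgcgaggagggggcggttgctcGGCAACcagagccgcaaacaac
Spag16, chr1:69826820-69826969, plus strand: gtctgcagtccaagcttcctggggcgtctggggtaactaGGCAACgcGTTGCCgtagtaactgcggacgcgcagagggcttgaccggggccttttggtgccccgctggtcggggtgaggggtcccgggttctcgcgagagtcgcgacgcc
Cfap58, chr19:47937562-47937711, plus strand: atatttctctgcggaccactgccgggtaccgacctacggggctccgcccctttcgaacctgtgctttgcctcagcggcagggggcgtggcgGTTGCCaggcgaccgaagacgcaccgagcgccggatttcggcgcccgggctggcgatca
Cfap20, chr8:95434870-95435019, minus strand: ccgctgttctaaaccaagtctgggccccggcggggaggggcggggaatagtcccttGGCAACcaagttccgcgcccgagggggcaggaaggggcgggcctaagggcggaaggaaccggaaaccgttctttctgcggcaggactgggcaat
Cfap46, chr7:139683816-139683965, minus strand: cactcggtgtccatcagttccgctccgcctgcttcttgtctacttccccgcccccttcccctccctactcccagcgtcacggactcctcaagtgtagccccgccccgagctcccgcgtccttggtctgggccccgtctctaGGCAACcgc
In Spag16 the core sites start 111 and 103 bases before the start, in Tekt1 35 and 15 bases before it and in Tekt2 96 and 22 bases before it. Each of these 3 stretches holds a pair of core sites, and those of Cfap58, Cfap20 and Cfap46 hold 1 each, at 59, 94 and 9 bases before the start.

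The 9 libraries held between 20797535 and 30400048 counts. Libraries stood apart in both lone-library comparisons. In the 5-week libraries, 12.4% (cuprizone) and 13.4% (mock) of 1274 genes of low level had no count. These genes were chosen by a mean count of 20 to 60 in the 5.5-week libraries, so few zeros there follow from the choice. In the 7-week libraries, which took no part in it, the shares were 0.0785% (mock) and 0% (cuprizone). The 7-week cuprizone library had a count for 34576 genes, and the others for at most 23980. It also held 2746 counts in olfactory receptor, vomeronasal receptor and keratin-associated genes, which brain should lack, spread over 913 of 1521 such genes. The 7-week mock library held 730 counts over 107 of them, and each of the other 7 libraries held 323 to 630. Microglia markers summed to 906 CPM in the 7-week cuprizone library and to between 34.9 and 86.9 CPM elsewhere. Of the astrocyte markers, 12 of 12 were detected in every library, as were 10 of 10 neuron and 10 of 10 mature oligodendrocyte markers. The astrocyte list summed to between 9263 and 18287 CPM. The neuron list summed to between 7407 and 14820 CPM and the oligodendrocyte list to between 9960 and 23561 CPM.

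Levels are given as CPM, which divide counts by the size of the library, here with TMM factors that set the libraries on one scale through the bulk of their genes. Most members were low: the median member was at 1.29 to 3.11 CPM depending on the library. Spag9, Cfap36, a partner of the small GTPase ARL3, and Spag7 were the highest, with mean levels of 188, 143 and 112 CPM over the 9 libraries. These 3 genes made up 53.8% of the summed CPM of all members, so the sum says little about cilia. Cfap20, a doublet-wall protein, followed at 63.1 CPM, then Cfap97 at 36.9, Foxj1 at 32.4, Cfap298 at 28.4 and Rsph9 at 25.1 CPM. Per kilobase of exon, a scale on which genes can be compared, Spag7 had 75.5 CPM, Cfap36 52.2, Spag9 16.8, Rsph9 15.7 and Foxj1 12.4. The Dnah genes, with exons of 12009 to 26820 bases in all, lay between 0.02 and 0.38 CPM per kilobase. The dynein motors were thus faint per length, and several had fewer than 20 counts in most libraries.

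At 5.5 weeks, when chow had been normal for 0.5 weeks, no member passed the test. edgeR's quasi-likelihood test with Benjamini-Hochberg adjustment over 16086 genes called 0 of 62 members tested, against 1.47% of all genes (173 higher and 63 lower). At an unadjusted p under 0.05 there were 11 members (17.7%), against 10.9% of all genes. DESeq2 called 1 member, Foxj1 (adjusted p = 0.0468), and limma-voom called 0. The cuprizone libraries lay above both mock libraries in 16 members (25.8%) and below in 8 (12.9%), 24 in all, against 13.7% of all genes in each direction and 27.4% in all. The median log2 fold change was 0.08 over the members and 0.00 over all genes. The labels call the libraries biological replicates, and 3 against 2 libraries is what the spread rests on.

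Foxj1 (ENSMUSG00000034227, chromosome 11), the regulator of the program, was at 26.2 and 34.0 CPM in the mock libraries and at 49.4, 43.6 and 38.8 CPM in the cuprizone libraries. All 3 cuprizone libraries lay above both mock libraries. The log2 fold change was 0.54 ± 0.15 (SE; edgeR adjusted p = 0.127). The adjusted p was 0.0468 with DESeq2, 0.0112 in edgeR with no filter on low counts and 0.0464 with the 6 libraries as deposited, so the call depended on the processing. Without mock 1 the log2 fold change was 0.37, and without mock 3 it was 0.74. In bulk RNA, a change in the number of ciliated cells and a change in RNA per cell cannot be told apart. Ependymal markers, 18 genes such as Ccdc153 and Tmem212, summed to 50.5 and 58.9 CPM in mock and to 53.4, 64.0 and 56.5 CPM after cuprizone, with overlapping groups. The 17 ependymal markers tested had a median log2 fold change of −0.09, and 1 of them was called, against 1.47% of all genes. This was Nek5, a kinase, at 0.71 and 0.58 CPM in mock and 2.18, 1.81 and 1.51 CPM after cuprizone (log2 fold change 1.498 ± 0.315, edgeR adjusted p = 0.04). Ttr, the transthyretin abundant in choroid plexus, rose from 1.24 and 1.62 CPM to 9.87, 21.2 and 33.6 CPM (edgeR adjusted p = 0.00694). It was the 1 gene called of 10 choroid plexus markers tested, whose median log2 fold change was 0.64. The list of 14 summed to 496 and 421 CPM in mock and to 590, 648 and 562 CPM after cuprizone, most of it Enpp2, which oligodendrocytes also express. Kcnj13, a channel of this epithelium, was at 0 in both mock libraries and at 0.07, 0.23 and 0.60 CPM after cuprizone. The part of these tissues in the Foxj1 values was not tested.

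**Figure D1:**
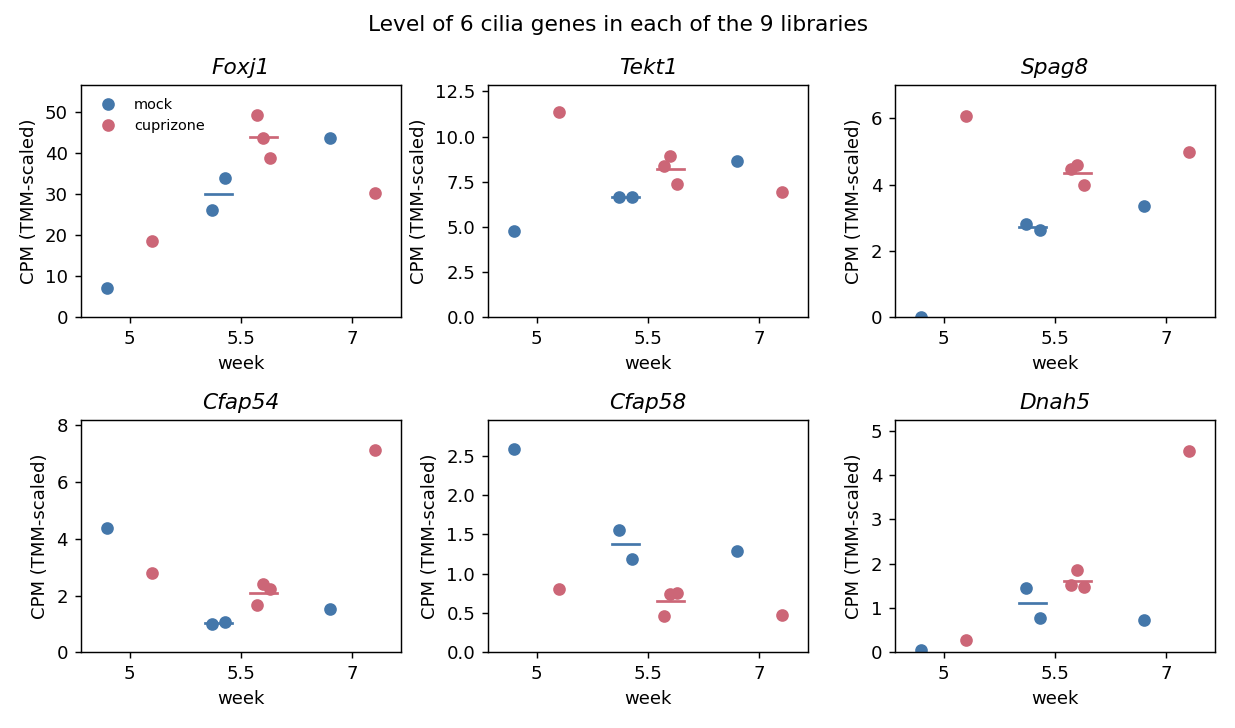
Level in CPM (vertical axes from 0, TMM-scaled) of Foxj1, Tekt1, Spag8, Cfap54, Cfap58 and Dnah5 in each of the 9 libraries by week, mock in blue and cuprizone in red; points are libraries and horizontal bars are the means of the 5.5-week groups. Cuprizone libraries lie above mock at 5.5 weeks in all panels but Cfap58, where they lie below, and the Foxj1 points at 5 weeks (7.22 and 18.7 CPM) lie under those of every later library.

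Among axonemal Spag genes, all 6 had a positive log2 fold change at 5.5 weeks. In 3 of them the cuprizone libraries lay above mock without overlap, against 13.7% of all genes. Spag8, a protein of the doublet lumen, was at 2.80 and 2.62 CPM in mock and at 4.48, 4.59 and 3.98 CPM after cuprizone. Its log2 fold change was 0.67 ± 0.21 (edgeR adjusted p = 0.187). Spag16, of the central apparatus, was at 0.96 and 1.15 CPM in mock and at 1.76, 1.62 and 1.87 CPM after cuprizone (log2 fold change 0.72 ± 0.27, edgeR adjusted p = 0.327). In both genes every cuprizone library was above every mock library, but the adjusted p missed the threshold. The 4 Spag genes outside the axoneme lay between −0.20 and 0.08, with overlapping groups in each. Spag9 was at 187 and 168 CPM in mock and at 183, 191 and 193 CPM after cuprizone. Spag7 was at 97.4 and 113 CPM in mock and at 81.0, 95.1 and 100 CPM after cuprizone.

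The tektins did not share a direction. Tekt1 was at 6.66 and 6.66 CPM in mock and at 8.35, 8.95 and 7.39 CPM after cuprizone (log2 fold change 0.30 ± 0.17, edgeR adjusted p = 0.577). Tekt2, at 0.25 and 0.23 CPM in mock, was at 0.46, 0.42 and 0.48 CPM after cuprizone (0.89 ± 0.47, edgeR adjusted p = 0.534). Both lay above mock in every cuprizone library, on few counts for Tekt2. Tekt5, the highest tektin here and one better known from the sperm tail, was at 22.2 and 19.9 CPM in mock and at 14.8, 12.8 and 18.8 CPM after cuprizone (−0.45 ± 0.17, edgeR adjusted p = 0.316). Its cuprizone libraries all lay below both mock libraries. Of the male germ cell markers, Prm2, Tnp1 and Akap4 had no count in any of the 9 libraries. The list of 12 summed to between 48.3 and 68.5 CPM, most of it Odf2, which is also a centrosome gene (38.6 to 61.4 CPM).

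Cfap genes held both the most positive and the most negative fold changes of the members. Cfap54, of the central apparatus, was at 0.99 and 1.08 CPM in mock and at 1.66, 2.41 and 2.23 CPM after cuprizone. The groups did not overlap, and the log2 fold change was 1.00 ± 0.29 (edgeR adjusted p = 0.153). Cfap53, a doublet-lumen protein that also acts in left-right patterning, was at 0.21 and 0.19 CPM in mock and at 0.42, 0.46 and 0.60 CPM after cuprizone (1.25 ± 0.49, edgeR adjusted p = 0.349). These are the most positive values, and neither passed. Cfap58, needed for sperm tail assembly, was at 1.56 and 1.19 CPM in mock and at 0.46, 0.74 and 0.76 CPM after cuprizone (−1.10 ± 0.34, edgeR adjusted p = 0.192). All 3 cuprizone libraries lay below both mock libraries. The median over 28 tested Cfap genes was 0.00, with 6 above and 4 below mock without overlap. Of all genes, 13.7% lay above and 13.7% below without overlap, so the Cfap counts are near or little over those shares. Cfap36 was at 134 and 145 CPM in mock and at 126, 119 and 136 CPM after cuprizone, and Cfap20 at 61.6 and 64.2 against 58.0, 58.9 and 58.2 CPM.

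Of the 15 dynein heavy chains, 11 passed the filter on low counts, with a median of 0.20. Dnah2, of an inner arm, was at 0.43 and 0.65 CPM in mock and at 0.95, 0.83 and 1.11 CPM after cuprizone (log2 fold change 0.84 ± 0.36, edgeR adjusted p = 0.428). Dnah5, the outer-arm motor, was at 1.45 and 0.77 CPM in mock and at 1.52, 1.86 and 1.47 CPM after cuprizone (0.51 ± 0.32, edgeR adjusted p = 0.622). Both were above mock without overlap, narrowly so for Dnah5. Dnah14 went the other way, at 1.17 and 1.73 CPM in mock and at 0.74, 0.32 and 0.99 CPM after cuprizone (−1.05 ± 0.39, edgeR adjusted p = 0.327). Dnah9, another outer-arm motor and one of the highest Dnah genes, had overlapping groups, at 4.82 and 4.54 CPM in mock and 8.42, 4.50 and 6.16 CPM after cuprizone. Dnah1, of an inner arm, was at 4.50 and 3.20 CPM in mock and at 3.95, 3.62 and 4.65 CPM after cuprizone, again overlapping. Dnah7a, Dnah7b and Dnah7c are close copies, as are Rsph3a with Rsph3b and Spag6 with Spag6l. Their counts depend on how reads shared between copies were treated, which is not given in the sources used here.

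Radial spoke genes had log2 fold changes between −0.32 and 0.26. Rsph9, a head protein of the spoke and the highest of the family, was at 30.8 and 23.4 CPM in mock and at 21.6, 26.0 and 23.3 CPM after cuprizone. Rsph1, also of the spoke head, was at 10.02 and 10.4 CPM in mock and at 10.6, 11.8 and 11.3 CPM after cuprizone (0.13 ± 0.15, edgeR adjusted p = 0.809). The groups overlapped for Rsph9 and were just apart for Rsph1.

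**Figure D2:**
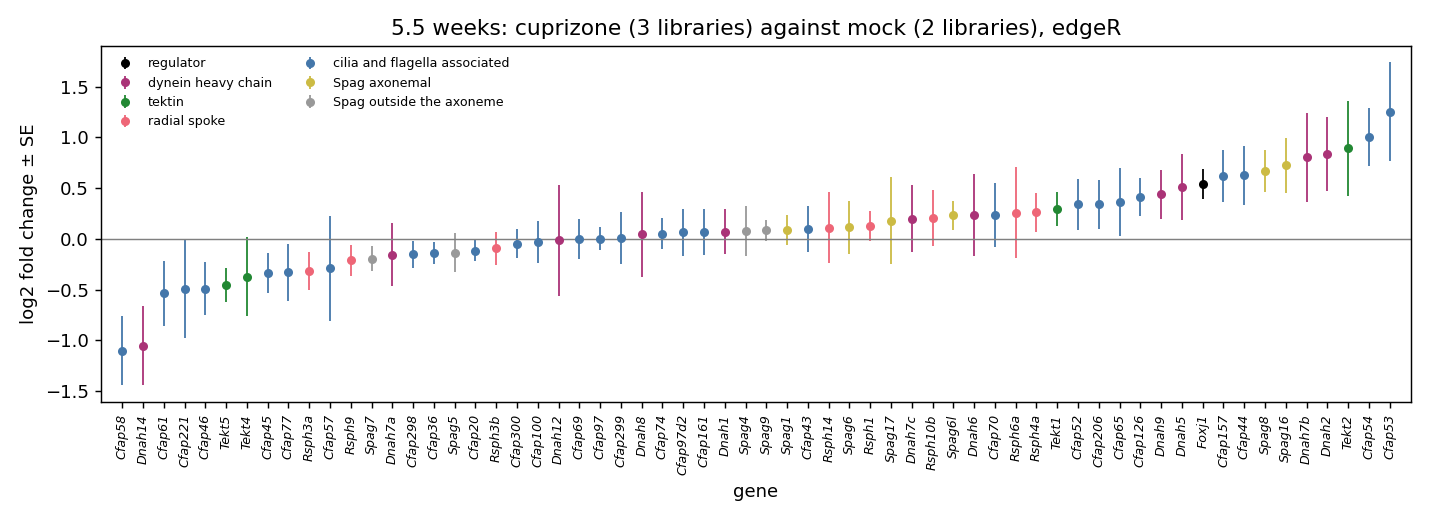
Log2 fold change at 5.5 weeks (vertical axis), cuprizone (3 libraries) over mock (2 libraries), with its SE from edgeR, for the 62 members tested (horizontal axis, in order of the value), coloured by role. Values run from −1.10 for Cfap58 to 1.25 for Cfap53, and no member passed the adjusted threshold.

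At 5 weeks, at the end of the cuprizone diet, more members were at least 2-fold higher in the cuprizone library than in the mock library. There is 1 library a group at this week, so it has no spread of its own and the values below are given without a test. An edgeR fit that lends it the spread of the 5.5-week groups was run as an alternative and for differences between weeks. Of 54 members with a summed count of 20 or more, 22 were higher by that measure (40.7%) and 8 lower (14.8%). Over all genes the shares were 12.2% higher and 16.3% lower. Among members with a summed count of 100 or more, 12 of 33 were higher and 2 lower, against 8.29% and 13.1% of all genes at that level. Among those with a summed count of 20 to 200, 16 of 30 were higher (53.3%), against 29.2% of protein-coding genes of that level. Where both libraries had 10 counts or more, 13 of 40 were higher and 4 lower, against 8.42% and 13.3%. The mock library of this week had no count for 13 of the 70 members and the cuprizone library for 7. Genes of low level at 5.5 weeks were more often at 0 in both libraries than in the 7-week libraries, as given above. The part of these zeros in the members' values was not tested.

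Foxj1 stood at 7.22 CPM in the 5-week mock library and at 18.7 CPM in the cuprizone library, from 148 and 420 counts. The ratio was 2.59 (exact 95% interval 2.14 to 3.15). With 1 library a group, this interval and the others cover counting error only. They may be too narrow even for that, since reads are not independent molecules. Both libraries lay below every later library, whose lowest Foxj1 level was 26.2 CPM. With the mean of all libraries as deposited, the log2 ratio was 2.01 in place of 1.36. Added integers of 1 to 10 could not give a shift of that size from these counts. For Foxj1 the libraries set aside therefore do not all follow their source by small integers. Spag8 had 0 counts in mock and 136 after cuprizone, which is at least 41.4-fold higher when the mock is set at a floor of 3 counts. Spag4, of the nuclear envelope, had 2 and 78 counts, a ratio of 35.6 (9.53 to 299), and Spag16 had 2 and 40 counts, a ratio of 18.3 (4.74 to 156). Tekt1 was at 4.78 and 11.4 CPM, a ratio of 2.38 (1.88 to 3.03). These 5 genes were higher after cuprizone, the most uncertain ratios being those with few mock counts.

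The dynein heavy chains were divided at 5 weeks, with 5 higher and 3 lower of 10 compared. Dnah14, Dnah8, Dnah2 and Dnah6 had no count in mock and were at least 16.4-fold, 15.8-fold, 9.13-fold and 7.91-fold higher after cuprizone. Dnah17 had 21 counts in mock and none after cuprizone, at least 7.67-fold lower. Dnah1 was at 7.32 CPM in mock and 2.76 CPM after cuprizone, a ratio of 0.377 (0.276 to 0.511). So the same family held genes at 0 in either library. Dnah9, by contrast, was at 5.90 and 6.41 CPM. Among Cfap genes, 7 were higher and 5 lower of 23. Cfap65, of the central apparatus, had 27 counts in mock and 1 after cuprizone, a ratio of 0.0338 (0.000826 to 0.205). Cfap58 was at 2.59 CPM in mock and 0.80 CPM after cuprizone, a ratio of 0.310 (0.171 to 0.538). Cfap54 was at 4.39 and 2.81 CPM, lower after cuprizone where at 5.5 weeks it had been higher. The abundant members were close: Cfap36 was at 172 CPM in mock and 195 CPM after cuprizone, Cfap20 at 76.0 and 59.5, Spag9 at 211 and 168, and Spag7 at 170 and 154. Rsph9 was at 25.2 and 33.4 CPM, Rsph1 at 9.81 and 18.9, and Tekt5 at 15.9 and 8.46.

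**Figure D3:**
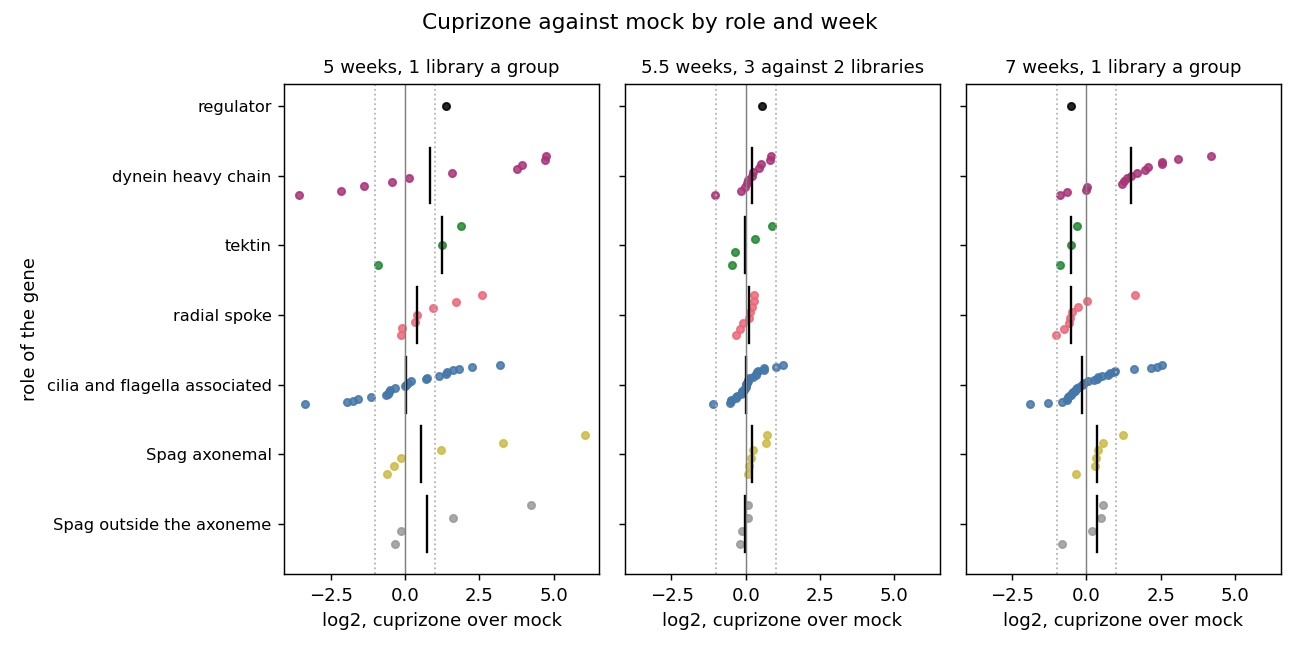
Log2 difference, cuprizone over mock (horizontal axes), of each member by role (vertical axis) at 5, 5.5 and 7 weeks; points are genes, vertical bars the medians of roles with more than 1 gene, dotted lines mark 2-fold. The points spread widest at 5 weeks, least at 5.5 weeks, and at 7 weeks most dynein heavy chains stand to the right with a median of 1.49.

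At 7 weeks, after 2 weeks on normal chow, most dynein heavy chains were higher in the cuprizone library and most short cilia genes were not. Again there is 1 library a group, and values are given without a test. Of 67 members compared, 17 were higher by 2-fold or more (25.4%) and 3 lower (4.48%), against 22.8% and 3.66% of all genes. With a summed count of 100 or more, 8 of 43 were higher and 0 lower, against 13.2% and 3.36%. With 10 counts or more in both libraries, 13 of 62 were higher and 2 lower, against 12.6% and 3.6%. Of the 17, 11 were dynein heavy chains, out of 15 compared. Dnah7b had 5 counts in mock and 127 after cuprizone, a ratio of 24.9 (10.4 to 78.1). Dnah12, of an inner arm, had 7 and 75 counts, a ratio of 10.5 (4.86 to 27.0). Dnah5 was at 0.73 CPM in mock and 4.55 CPM after cuprizone, a ratio of 6.21 (3.90 to 10.4). Dnah6 had a ratio of 6.62 (3.59 to 13.3) and Dnah10 one of 4.82 (2.49 to 10.2), so that motors of inner and outer arms alike were higher. The other 4 were not: Dnah7a was at 2.96 and 2.97 CPM, Dnah8 had 18 counts in each library, and Dnah14 had a ratio of 0.619 (0.408 to 0.929). Dnah9 was lower too, at 9.13 CPM in mock and 4.92 CPM after cuprizone, a ratio of 0.539 (0.437 to 0.663).

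Exonic length moved with these values. Members of 10 kb or more were at least 2-fold higher in 12 of 19 cases (63.2%, median log2 ratio 1.38), and members under 5 kb in 1 of 37 (median −0.40). Long protein-coding genes of low level were often higher too. Of 121 with 10 kb or more and a summed count of 20 to 200, 69.4% were at least 2-fold higher. Their median was 1.76. The members of that class were higher in 10 of 14 cases (71.4%), with a median of 1.59. The share among dynein-sized members was thus close to that of other long genes of low level in the same libraries. The short members were not close to theirs. Under 5 kb at that level, 1 of 19 members was higher (5.26%, median −0.26), against 40.5% of 2057 protein-coding genes (median 0.68). Counts in genes that brain should lack were 0.498 per kilobase in the cuprizone library and 0.132 in the mock library, and those in the Dnah genes were 4.98 and 2.69 per kilobase. What part of the ratios goes with this background or with the microglial RNA of the library was not tested.

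**Figure D4:**
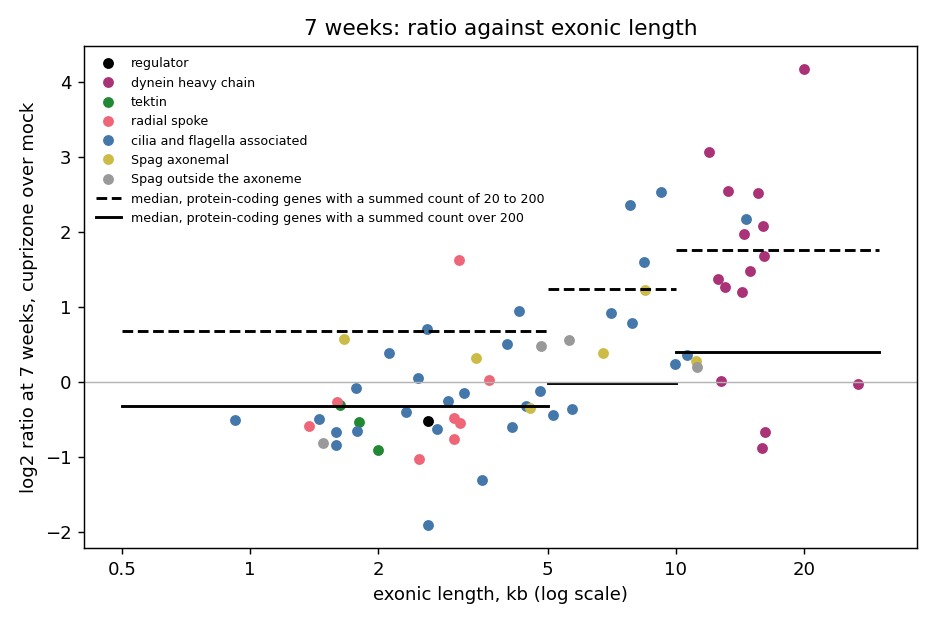
Log2 ratio at 7 weeks, cuprizone over mock (vertical axis), against exonic length in kb (horizontal log axis) for the 67 members compared, coloured by role; black lines are medians of protein-coding genes by length class, dashed for a summed count of 20 to 200 and solid for over 200. Members of 10 kb or more have a median of 1.38, and the dashed line of that class lies at 1.76.

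Foxj1 was at 43.8 CPM in the 7-week mock library and at 30.4 CPM after cuprizone, a ratio of 0.694 (0.636 to 0.757). Its direction was the opposite of that at 5 and 5.5 weeks. Without the TMM factor its log2 ratio was −0.20 in place of −0.53, since that factor shifts the median of all genes from 0.40 to 0.08. Other members of fair level were also lower: Cfap36 at 159 and 103 CPM, Spag7 at 125 and 70.8 CPM, and Rsph1 at 14.1 and 9.37 CPM. Tekt1 (8.64 and 6.94 CPM), Cfap20 (73.1 and 58.5 CPM) and Rsph9 (22.9 and 19.0 CPM) were lower too, but their log2 ratios were 0.01, 0.01 and 0.06 without the TMM factor. Tekt5 had a ratio of 0.687 (0.598 to 0.790), and Spag9 was at 182 and 208 CPM. Genes above a log2 CPM of 5 had a median log2 ratio of −0.36 in this comparison. Of the most abundant members, Spag7 was at −0.82, Cfap36 at −0.63, Cfap20 at −0.32 and Spag9 at 0.19 on that scale, so they lay on both sides of it. Among Cfap genes, Cfap46 had a ratio of 6.19 (3.97 to 10.1), Cfap65 one of 5.51 (3.45 to 9.24) and Cfap54 one of 4.66 (3.35 to 6.61), all 3 with long exons. Cfap58 was at 1.29 and 0.48 CPM, a ratio of 0.371 (0.185 to 0.703).

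Most members, like most genes, did not keep a direction through all 3 weeks. In 8 of the 62 tested members every cuprizone library lay above every mock library of its week at each week (12.9%), against 5.61% of all genes: Cfap44, Cfap53, Dnah2, Dnah5, Rsph10b, Spag16, Spag8 and Tekt2. In 4 every cuprizone library lay below (6.45%), against 7.62% of all genes: Cfap20, Cfap58, Rsph3a and Tekt5. Across weeks, all 5 cuprizone libraries lay above all 4 mock libraries in 4 members (Dnah2, Rsph10b, Spag8 and Tekt2; 6.45%, against 2.89% of all genes) and below them in 3 (Cfap20, Cfap58 and Rsph3a; 4.84%, against 2.85%). These sets were read off after the values were seen. In Spag8 the 5 cuprizone libraries ranged from 3.98 to 6.06 CPM and the 4 mock libraries from 0 to 3.34 CPM, with no overlap across weeks. In Cfap58 the cuprizone libraries ranged from 0.46 to 0.80 CPM and the mock libraries from 1.19 to 2.59 CPM. Foxj1 was not among them because of its 7-week values.

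The other genes of the pathway are given as 7 lists, and at 5.5 weeks 1.47% of all genes passed the test, a share at which lists of this size hold few calls or none. The multiciliation regulators other than Foxj1 had 0 of 14 called, dynein assembly factors 0 of 13, axonemal light chains 0 of 7, the central apparatus and other axonemal genes 0 of 28, intraflagellar transport 0 of 29 and the BBSome with other primary cilium genes 0 of 18. The regulators ranged from −0.51 for Mcidas to 0.74 for Trp73 on the log2 scale. In the docking complex, ruler and nexin link list 1 of 16 was called. This was Ccdc114, of the complex that anchors outer dynein arms, which rose from 4.46 and 3.73 CPM to 7.79, 7.28 and 7.43 CPM (log2 fold change 0.86 ± 0.18, edgeR adjusted p = 0.0407). All 3 cuprizone libraries lay above both mock libraries, and the list's median was 0.01. Dnaic1 was at 7.86 and 8.47 CPM in mock and at 5.25, 7.79 and 5.21 CPM after cuprizone, and Dnaic2 at 4.60 and 5.12 CPM in mock and at 6.31, 6.31 and 6.56 CPM after cuprizone. These intermediate chains of the outer arm, neither of them called, lay on opposite sides of mock.

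At 5 weeks, motile cilia lists held more genes higher after cuprizone than lower, where of all genes 12.2% were at least 2-fold higher and 16.3% lower. In the central apparatus list 12 of 27 were at least 2-fold higher and 2 lower, in the assembly factors 5 of 12 higher and 0 lower, and in the docking list 4 of 16 higher and 0 lower. In the transport list, which serves primary and motile cilia alike, 1 of 29 was higher and 1 lower, and in the primary cilium list 1 of 17 was higher. These shares depend on level: 29.2% of protein-coding genes with a summed count of 20 to 200 were higher, and 6.77% of those over 200. The lists differ in level, the transport list summing to 1488 CPM in mock and the central apparatus list to 414 CPM, with 29 genes in each. Shares matched for level were not taken for the lists. Median log2 ratios were 0.93 for the regulators, 0.76 in the central apparatus list, 0.42 in the primary cilium list, 0.32 for the assembly factors, 0.24 for the light chains, 0.20 in the docking list and 0.12 in the transport list, against −0.06 over all genes. By its median the primary cilium list thus lay among the motile cilia lists. Among 12 regulators compared, 6 were at least 2-fold higher and 2 lower. Rfx2, an RFX factor of the program, was at 1.66 CPM in mock and 10.2 CPM after cuprizone, and Rfx4 at 26.8 and 55.0 CPM. Rfx5 is in the list as an RFX gene and is not known as a multiciliation regulator. It was at 3.32 and 14.1 CPM and counts among the 6. Trp73, an upstream activator of Foxj1, had 0 and 21 counts, at least 6.39-fold higher. Gmnc, which starts the multiciliated fate, was at 0.20 and 1.11 CPM, and Myb at 0.34 and 0.94 CPM. Ccno, a cyclin-like protein of centriole amplification, was lower, at 5.81 and 2.85 CPM, and Ccdc78 had 31 counts in mock and 0 after cuprizone, at least 11.3-fold lower. Rfx3 was at 42.9 and 43.2 CPM and Rfx1 at 4.98 and 3.70 CPM, E2f4 at 9.46 and 12.8, and E2f5 at 12.6 and 22.4. Deup1 had 0 and 14 counts and Mcidas 0 and 1.

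Beside these, ependymal markers summed to 48.4 CPM in the 5-week mock library and to 102.9 CPM in the cuprizone library. Of 16 compared, 5 were at least 2-fold higher and 0 lower, against 12.2% and 16.3% of all genes, and Tm4sf1, which other cells also express, went from 4.29 to 27.2 CPM. Ttr went the other way at this week, at 26.6 CPM in mock and 2.98 CPM after cuprizone. The choroid plexus list to which it belongs was split, with 3 genes at least 2-fold higher and 3 lower of 9 compared. The part of ependymal RNA in the members' values was not tested. At 7 weeks, when 22.8% of all genes were at least 2-fold higher and 3.66% lower, the ependymal list had 3 genes higher and 4 lower of 17 and summed to 80.7 CPM in mock and 89.0 CPM after cuprizone, 30.2 CPM of the latter from Tm4sf1. At that week the choroid plexus list had 6 higher and 1 lower of 11. The regulators had 2 higher and 1 lower of 14. Trp73 was the lower one, at 2.40 CPM in mock and 1.16 CPM after cuprizone, and the higher ones were Gmnc and Mcidas, at 0.31 and 0.35 CPM in mock and 0.72 and 0.79 CPM after cuprizone.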

How the data were processed

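Ribosome-bound RNA of corpus callosum was measured in 17 libraries. For 9 of them the deposited values are whole-number counts, 1 for each Ensembl gene. The authors used, per the submitters' processing notes, FastQC 0.11.9, STAR 2.5.4b and featureCounts 1.6.0; the notes name GRCm38/mm10 and GRCm39/mm39 without their role, so no coordinates of the counted genes are given. The strand setting is not given in the sources used here. The other 8 deposited columns equal another library of the group plus an integer from 1 to 10 in 46.6% to 96.2% of genes with 500 or more counts, and were used in alternatives only.

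Symbols and exonic lengths came from GENCODE M21. At 5.5 weeks, low genes were removed with filterByExpr (minimum count 10), TMM factors were applied and the test was two-sided, with edgeR 4.0.16 (robust quasi-likelihood test, 3 residual degrees of freedom, Benjamini-Hochberg adjustment over all genes tested, threshold 0.05). At 5 and 7 weeks, log2 ratios of TMM-scaled CPM used a prior count of 2 and a summed count of at least 20. Count ratios carry exact (Clopper-Pearson) 95% intervals, and a count of 0 was set at a floor of 3 counts per library. Displayed CPM use the TMM factors of the 9 libraries, and fold changes at 5.5 weeks those of the 5 libraries fitted. Alternatives were DESeq2 1.42.0, limma-voom (limma 3.58.1), relative log expression factors, other filters, other sets of libraries and a replicate term. The edgeR script was tested on simulated data. The members, lists and comparisons were chosen with earlier results of these data known.

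Named members are Foxj1, the pair of highest members of each family, the 8 with the largest absolute log2 fold change at 5.5 weeks and the 8 with the largest absolute log2 ratio at 5 and at 7 weeks; other names were chosen after their values were seen. Promoter sequences are from RefSeq (GRCm38.p6).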

Additional observations from a re-analysis of the deposited data

Results flagged for a closer look

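The cuprizone effect on a member was compared between weeks in an edgeR fit of the 9 libraries, in which the lone libraries of 5 and 7 weeks are assumed to vary like the 5.5-week groups. Over all 20292 genes, this difference passed an adjusted p of 0.05 (Benjamini-Hochberg) in 23.2% for 5 weeks and 17.2% for 7 weeks, so a pass is common here. Of 68 members, 30 and 8 passed. Among the named members with 10 counts or more in both libraries of the week, Foxj1 differed at both: its effect was 0.83 higher on the log2 scale at 5 weeks than at 5.5 weeks, and −1.07 relative to it at 7 weeks. Cfap54 and Dnah1 differed at 5 weeks, by −1.65 and −1.49. Those 5-week differences compare libraries of batch 1 with libraries of batch 2 and cannot be told apart from the batch.

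At 7 weeks, Cfap46 differed from its 5.5-week effect by 3.11, Dnah6 by 2.47, Dnah5 by 2.11 and Cfap65 by 2.09, and Dnah9 by −1.34. All rest on the 7-week cuprizone library, which has 2746 counts in genes that brain should lack, against 730 in the mock library of that week. The part of that background in these differences was not tested.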

How the results depend on the processing

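The counts of genes called at 5.5 weeks moved most with the libraries used: 236 in the fit reported, 398 with the 6 libraries as deposited, 789 with all 17, 543 with no filter on low counts, and between 65 and 274 when 1 library was left out (130 without cuprizone 1, 88 without mock 1 and 65 without mock 3). No member was called in any of the fits with 1 library left out. 1 member was called with the 6 libraries, with DESeq2 and with no filter (Foxj1 each time), and 1 with all 17 libraries (Cfap54, adjusted p = 0.0176 in edgeR). With the replicate number as a block, 693 genes and 0 members were called; that fit also leaves out cuprizone 2, whose number has no distinct mock library (274 genes were called without it and with no block). Same-numbered libraries had correlations of deviations of 0.039 and −0.08. With only mock 1 and mock 3, the deviations of these libraries from their mean mirror each other. The correlations therefore cannot decide whether same-numbered libraries were paired.

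At 5 weeks, 30 members were at least 2-fold apart, 14 with a summed count of 100 or more and 17 with 10 counts or more in both libraries, since fewer genes are compared. At 7 weeks the 20 became 8 with a summed count of 100 or more. The edgeR fit of 17 libraries gave 37 at 7 weeks, but by another measure. These 37 are members with an adjusted p under 0.05, whatever their fold change, so they cannot be set against the 20. The repeats in that fit also lie 1 to 10 counts above another library in 46.6% to 96.2% of genes with 500 or more counts. They therefore cannot be taken as separate mice. No called value changed sign. With the means of the deposited libraries at 5 weeks, the log2 ratio of Cfap65 was −0.96 and that of Dnah1 was −0.45, smaller than from the libraries reported. Members of few counts limit what these depths can show. The filter for 10 counts in both libraries and the length classes were added after seeing the data.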
